A study of Homo sapiens with 9 samples.

Results

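The 10 RNAs described here are long noncoding RNAs of the human hepatocellular carcinoma line Huh-7: MALAT1 and NEAT1, which stay in the nucleus, the liver cancer transcript HULC, and 7 transcripts whose genes carry small nucleolar RNAs (snoRNAs), namely GAS5, SNHG1, SNHG5, SNHG6, SNHG16, SNHG8 and EPB41L4A-AS1. They were chosen by name and looked up by their Ensembl identifiers, and all 10 were found among the 60664 identifiers of the count table. The study compared wild type Huh-7 cells (WT) with cells that lack vault RNA 1-1 (1-1 KO) and cells that lack vault RNA 1-2 (1-2 KO), both made with CRISPR/Cas9, and sequenced polyadenylated RNA from 3 libraries of each, 9 in all. Vault RNAs are short noncoding transcripts of RNA polymerase III that are also part of the vault particle. All 3 lines were untreated and were grown to near confluency in the same serum-containing medium. Each knockout is 1 cell line: the 1-2 KO line grew from a single clone of the WT cells, and the WT and 1-1 KO cells came from another laboratory, so a difference between lines cannot be told apart from a difference between clones. The study calls the 3 libraries of a line biological replicates, and p-values measure the spread between such libraries, not between independent knockouts.

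MALAT1 (metastasis associated lung adenocarcinoma transcript) collects in nuclear speckles, the stores of splicing factors, and its primary transcript is cut near the 3′ end to release a small tRNA-like RNA called mascRNA. NEAT1 is the RNA scaffold around which paraspeckles form, and its gene lies beside that of MALAT1. The snoRNA host genes work in a different way: the snoRNA is cut out of an intron and guides chemical modification of ribosomal RNA, either methylation (box C/D snoRNAs) or conversion of uridine to pseudouridine (box H/ACA snoRNAs), while the spliced exons leave as a long noncoding RNA. Many of these spliced RNAs start with a run of pyrimidines like the mRNAs of ribosomal proteins and are removed by nonsense-mediated decay when ribosomes read them. GAS5 takes its name from growth arrest, during which it accumulates. HULC was named for its high level in liver cancer.

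The small RNAs for which 7 of these genes are known are shown first, 1 for each of the 7, since the deposited counts of the hosts are counts of the spliced or unspliced long transcript and not of these products. The sequences were read from hg38 at the RefSeq positions. Where a gene holds several, the snoRNA with most counts was taken and otherwise the first to be transcribed. RefSeq places 11 snoRNA genes in GAS5, 9 in SNHG1, 3 in SNHG16, 2 in SNHG5 and 1 each in SNHG8 and EPB41L4A-AS1. Capitals mark TGATGA (the C box) within the first 20 bases and CTGA (the D box) within the last 20, or, in the H/ACA snoRNAs, ACA within the last 8 bases. On the chromosomes read, 53.3% of 107 SNORD genes held the C and D letters on either strand and 88.3% of 60 SNORA genes held the ACA.
mascRNA (in MALAT1, chr11:65506117-65506174, strand +): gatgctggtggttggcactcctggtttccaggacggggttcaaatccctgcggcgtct
SNORD74 (in GAS5, chr1:173867674-173867745, strand -): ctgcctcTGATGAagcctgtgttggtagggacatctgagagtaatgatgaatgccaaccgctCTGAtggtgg
SNORD25 (in SNHG1, chr11:62855565-62855631, strand -): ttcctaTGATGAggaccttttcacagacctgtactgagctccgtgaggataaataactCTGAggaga
SNORD50B (in SNHG5, chr6:85677589-85677659, strand -): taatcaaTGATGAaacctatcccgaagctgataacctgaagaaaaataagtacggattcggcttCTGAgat
SNORD1B (in SNHG16, chr17:76561108-76561193, strand +): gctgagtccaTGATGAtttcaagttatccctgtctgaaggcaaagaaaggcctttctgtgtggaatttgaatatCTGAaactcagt
SNORA24 (in SNHG8, chr4:118279190-118279320, strand +): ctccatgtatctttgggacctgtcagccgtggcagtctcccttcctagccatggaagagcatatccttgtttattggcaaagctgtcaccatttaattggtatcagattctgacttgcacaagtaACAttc
SNORA13 (in EPB41L4A-AS1, chr5:112161485-112161617, strand +): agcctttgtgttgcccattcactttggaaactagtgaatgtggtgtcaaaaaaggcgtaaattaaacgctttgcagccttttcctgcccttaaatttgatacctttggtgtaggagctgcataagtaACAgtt

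These products had almost no counts of their own. Of 14 snoRNA genes inside the 10 that have a row of their own, 12 had 0 counts in all 9 libraries. By counting error alone this would allow up to 3 counts in each. All 12 lie wholly within annotated exons of their host, however. How reads shared by a host and a snoRNA gene were counted is not given in the sources used here. A count of 0 therefore need not mean that no read fell there. SNORD1B had at most 4 counts in a library and SNORA13 at most 6. The row that covers mascRNA, which lies within the MALAT1 exon, also stood at 0 in all 9 libraries, with the same limit. The hosts were therefore measured by their long transcripts, and the production of snoRNAs was not measured.

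The starts of 3 box C/D hosts are shown because all 5 hosts of this class were lower in 1-2 KO than in WT. Each window runs from 30 bases before to 30 bases after the RefSeq start in GRCh38.p14, and capitals mark CTTTT, the letters of a short pyrimidine run. Of 7 members with an entry in the RefSeq promoter table, SNHG5 and SNHG16 held CTTTT on the transcribed strand of this window. So did 6.75% of all 35116 entries, and 6.92% held it on the other strand. A match is a description of the letters only. Other pyrimidine runs, such as tttttct in SNHG1, are not marked. The entry of GAS5 lies outside the gene span given for it below.
SNHG1 (chr11:62855856-62855915, strand -): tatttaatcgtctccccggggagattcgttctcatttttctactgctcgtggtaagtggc
SNHG5 (chr6:85678704-85678763, strand -): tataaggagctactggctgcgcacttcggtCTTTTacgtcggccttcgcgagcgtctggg
SNHG16 (chr17:76557734-76557793, strand +): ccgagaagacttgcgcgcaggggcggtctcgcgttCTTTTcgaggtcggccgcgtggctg

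Sequencing depth was even, between 32384469 and 41782387 counts per library, and 17207 genes with enough counts were tested. Levels are given as CPM, counts scaled by library size after TMM normalization, and adjusted p-values come from edgeR's quasi-likelihood test on all 9 libraries with Benjamini-Hochberg adjustment over the 17207 genes. A gene is called where that value is below 0.05, and SE is the standard error of the log2 fold change. Most of the transcriptome passed this test, at a biological coefficient of variation of 5.55%. In 1-1 KO against WT 63.4% of genes were called (32.5% higher and 30.9% lower), in 1-2 KO against WT 54.4% (28.2% higher and 26.2% lower), and in 1-2 KO against 1-1 KO 65.3% (33.1% higher and 32.2% lower). The libraries of the lines did not overlap for 68.9%, 58.4% and 69.8% of genes, in the same order. A call by itself therefore sets none of the 10 apart, and sizes are read against the median absolute log2 fold change of all genes, which was 0.35, 0.27 and 0.37. The knockouts themselves could not be checked here, because VTRNA1-1 had 1 count in 1 WT library and 0 in the other 8, and VTRNA1-2 had 0 in all 9.

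All 10 members passed the filter on low counts, with 41 to 8872 counts per library. In 1-1 KO 6 of the 10 were lower than in WT, 1 was higher and 3 were not called, with a median log2 fold change of -0.25 against 0.01 for all genes. In 1-2 KO 7 were lower, 2 were higher and 1 was not called, with a median of -0.20 against 0.02. Both comparisons use the same WT libraries. Between the knockouts 5 were higher in 1-2 KO, 4 were lower and 1 was not called. Some called changes were smaller than the median absolute change of all genes in their comparison. In 1-1 KO these were SNHG1 and SNHG8, with SNHG6 level with that median. In 1-2 KO they were GAS5, SNHG1 and SNHG5, and between the knockouts SNHG1, SNHG5, SNHG8 and SNHG16. In bulk RNA of this kind, fewer cells with an RNA and less of it in each cell cannot be told apart. Together the 10 made up 0.0680% to 0.0773% of the counts of a WT library, 0.0525% to 0.0563% in 1-1 KO and 0.0643% to 0.0685% in 1-2 KO. The 1-1 KO libraries were lowest and did not overlap with either other line, whereas WT and 1-2 KO overlapped slightly.

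**Figure D1:**
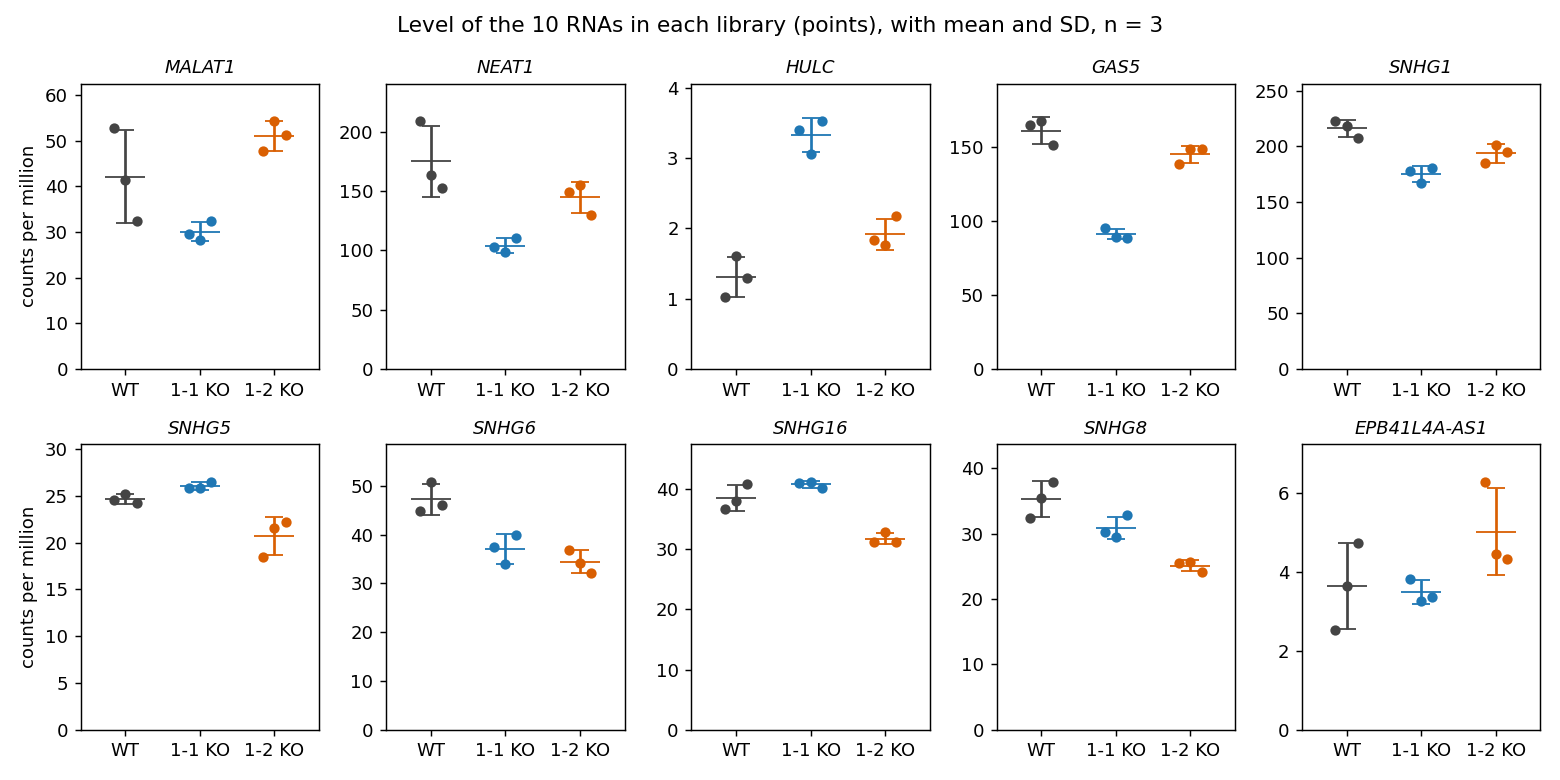
Level of each of the 10 RNAs in CPM (y axis, from 0) in the 9 libraries, grouped by line on the x axis. Points are libraries and bars are the mean and SD of 3. GAS5 and NEAT1 were lowest in 1-1 KO, SNHG16 and SNHG8 were lowest in 1-2 KO, and the WT points of MALAT1, NEAT1 and EPB41L4A-AS1 are widely spread.

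The libraries hold polyadenylated RNA, so molecules without a poly(A) tail may be missed, to an extent that was not measured for any member. The merged exon lengths come from another annotation release than the counts. They join the exons of all isoforms, from 2527 nucleotides for SNHG6 to 50369 for the HULC locus, so a long annotation lowers the value. For HULC the counts and the length are those of the larger locus described below, not of the short transcript. The order given here is therefore that of levels in these libraries and need not be the order in the cell. Per kilobase of annotated exon, SNHG1 had the highest level of the 10 in every line, followed by GAS5 and SNHG6. In WT their levels were 54.4 ± 2.00, 32.6 ± 1.78 and 18.7 ± 1.25 CPM per kilobase (SD, n = 3), and these 3 did not overlap in any line. NEAT1 came next at 7.68 ± 1.32 CPM per kilobase, and its range overlapped with that of SNHG16 (6.68 ± 0.370). SNHG8 (5.34 ± 0.417) likewise overlapped with MALAT1 (4.03 ± 0.978). SNHG5 at 1.96 ± 0.0392, EPB41L4A-AS1 at 0.847 ± 0.255 and the HULC locus at 0.0260 ± 0.00566 CPM per kilobase closed the order without overlap. In 1-1 KO NEAT1 stood at 4.56 ± 0.270 CPM per kilobase, below SNHG16 (7.07 ± 0.105) and within the range of SNHG8 (4.67 ± 0.262). In 1-2 KO MALAT1 (4.90 ± 0.316) was above SNHG8 (3.796 ± 0.122), and EPB41L4A-AS1 (1.17 ± 0.257) overlapped with SNHG5 (1.65 ± 0.161). By CPM, SNHG1 ranked 973rd of the 17207 tested genes in WT. The name abundant is borne out less well by the HULC locus and EPB41L4A-AS1, which were above only 27.5% to 35.3% and 35.8% to 39.0% of tested genes.

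MALAT1 (ENSG00000251562, chr11:65497640-65508073, plus strand, GRCh38) is counted over 1 exon of 10434 nucleotides. Its level was 52.7, 41.3 and 32.3 CPM in the WT libraries, 29.5, 28.2 and 32.3 CPM in 1-1 KO and 47.7, 54.3 and 51.2 CPM in 1-2 KO. The WT libraries covered most of the range of the other lines, and the lowest of them met the highest 1-1 KO library. MALAT1 was lower in 1-1 KO than in WT (30.02 ± 2.08 against 42.1 ± 10.2 CPM, SD, n = 3), with a log2 fold change of -0.49 (SE 0.12) and an adjusted p of 0.0032. The size of this fall ranged from -0.30 without WT 1 (adjusted p = 0.013) to -0.64 without WT 3, and the call held in all 9 refits that each left out a library. The 1-2 KO mean of 51.1 ± 3.30 CPM was not called against WT (0.27, SE 0.12, adjusted p = 0.071). The answer moves with the WT libraries, from 0.47 (adjusted p = 0.00077) without WT 1 to 0.10 (adjusted p = 0.36) without WT 3. It was also called without 1-2 KO 1 (0.32, adjusted p = 0.048), with library size alone (0.33, adjusted p = 0.039) and with no filter (0.26, adjusted p = 2.4e-05). Between the knockouts MALAT1 was 1.70-fold higher in 1-2 KO, with no overlap of libraries (log2 0.77, SE 0.12, adjusted p = 7.6e-05).

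NEAT1 (ENSG00000245532, chr11:65422774-65445540, plus strand) is counted over 1 exon of 22767 nucleotides, which spans its short, polyadenylated form and its long form together. Its level was 209, 163 and 152 CPM in WT, 102, 98.6 and 111 CPM in 1-1 KO and 149, 155 and 130 CPM in 1-2 KO. The 1-1 KO libraries lay below all others, while the WT and 1-2 KO libraries overlapped. NEAT1 was 1.68-fold lower in 1-1 KO than in WT (103.9 ± 6.15 against 175 ± 30.1 CPM, SD, n = 3, log2 -0.75, SE 0.10, adjusted p = 9.1e-06). It was also lower in 1-2 KO (144 ± 12.8 CPM, log2 -0.28, SE 0.09, adjusted p = 0.024), a call that was lost without WT 1 (-0.13, adjusted p = 0.13), without 1-2 KO 3 (-0.21, adjusted p = 0.10), with library size alone (-0.22, adjusted p = 0.074) and with DESeq2 on all libraries (adjusted p = 0.086) or on the lines compared (adjusted p = 0.18). Between the knockouts it was 1.39-fold higher in 1-2 KO (log2 0.47, SE 0.10, adjusted p = 0.00055).

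MALAT1 and NEAT1 share the same 20 nearest tested genes, 10 on each side, in a window of 0.53 Mb. In 1-1 KO the median log2 fold change of these 20 neighbours was 0.03, with 5 called higher and 0 called lower, and none of the 20 fell below either RNA. In 1-2 KO the neighbours' median was 0.09. The ratio of NEAT1 to MALAT1 counts within a library does not depend on scaling between libraries. It was 3.97, 3.95 and 4.72 in WT, 3.47, 3.49 and 3.43 in 1-1 KO and 3.12, 2.84 and 2.54 in 1-2 KO, so that the 3 lines did not overlap and 1-2 KO had the least NEAT1 for its MALAT1.

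HULC could be measured only as part of a larger locus. Its row in the table, ENSG00000285219, covers 858566 nucleotides of chromosome 6 (chr6:8435568-9294133, plus strand) with 50369 exonic nucleotides in GENCODE 44, and the RefSeq HULC gene is a small piece of it. The reads were counted on another annotation release than GENCODE 44, and how that release drew the row was not checked here. The counts of the row, 41 to 144 per library, are therefore given as counts of this locus, and the share from HULC itself is not known. The level was 1.03, 1.60 and 1.30 CPM in WT, 3.40, 3.06 and 3.53 CPM in 1-1 KO and 1.83, 1.76 and 2.17 CPM in 1-2 KO. The 3 lines did not overlap, with 1-1 KO highest and WT lowest. The locus was 2.55-fold higher in 1-1 KO than in WT (3.33 ± 0.241 against 1.31 ± 0.285 CPM, SD, n = 3, log2 1.35, SE 0.16, adjusted p = 3.9e-06), the largest log2 change of the 10 in either knockout. It was 1.47-fold higher in 1-2 KO (1.92 ± 0.221 CPM, log2 0.55, SE 0.17, adjusted p = 0.013), which was no longer called without WT 1 (0.39, adjusted p = 0.069), without 1-2 KO 3 (0.46, adjusted p = 0.054) or with DESeq2 on the lines compared (adjusted p = 0.11). Between the knockouts it was lower in 1-2 KO by 0.80 on the log2 scale (SE 0.15, adjusted p = 0.00025). The 20 neighbours moved in the same order between the knockouts, with medians of 0.28 in 1-1 KO, -0.25 in 1-2 KO and -0.57 for 1-2 KO against 1-1 KO, and their part in the difference was not tested.

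**Figure D2:**
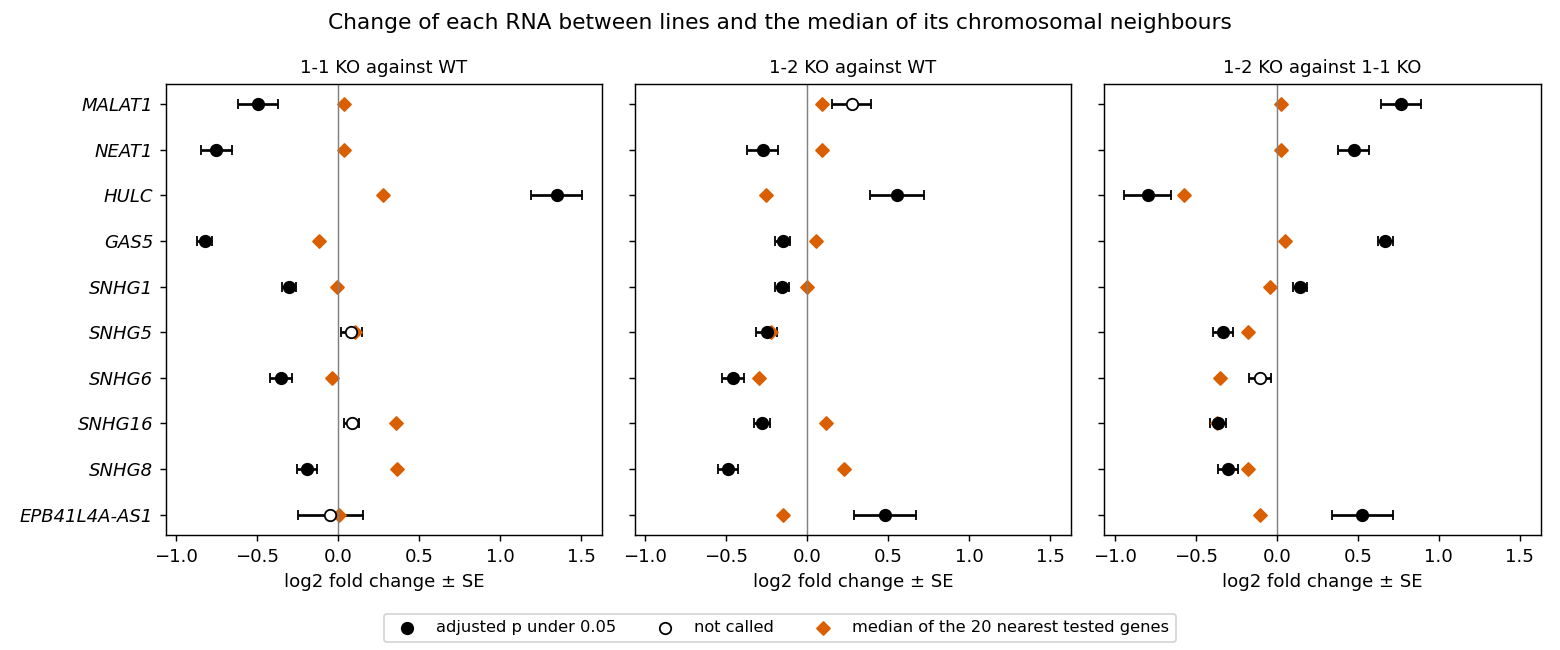
Log2 fold change of each RNA (x axis, with SE) in the 3 comparisons, filled where the adjusted p was below 0.05 and open where it was not, and the median of the 20 nearest tested genes (diamonds). NEAT1, GAS5, SNHG8 and MALAT1 lay furthest below the median of their neighbours in 1-1 KO. SNHG16 and its neighbours had nearly the same value between the knockouts.

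Among the 5 box C/D hosts, all were lower in 1-2 KO than in WT, with no overlap of libraries for any, and 3 were lower in 1-1 KO (GAS5, SNHG1 and SNHG6) while SNHG5 and SNHG16 were not called. Between the knockouts the class split: GAS5 and SNHG1 were higher in 1-2 KO, SNHG5 and SNHG16 were lower, and SNHG6 was not called. Of all genes, 30.9% were called lower in 1-1 KO and 26.2% in 1-2 KO, where 58.4% had libraries that did not overlap in either direction. The median log2 fold change of the class was -0.30 in 1-1 KO and -0.25 in 1-2 KO.

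GAS5 (ENSG00000234741, chr1:173858559-173868882, minus strand) has 4932 exonic nucleotides. Its level was 164, 167 and 151 CPM in WT, 95.2, 89.3 and 88.6 CPM in 1-1 KO and 138, 148 and 148 CPM in 1-2 KO. The 3 lines did not overlap, and the 1-1 KO libraries stood far below the rest. GAS5 was 1.77-fold lower in 1-1 KO than in WT (91.0 ± 3.60 against 161 ± 8.79 CPM, SD, n = 3, log2 -0.82, SE 0.05, adjusted p = 2.3e-09), the largest fall of the 10 in either knockout. In 1-2 KO it was 1.11-fold lower (145 ± 5.73 CPM, log2 -0.15, SE 0.05, adjusted p = 0.012), less than the typical change of a gene in that comparison and not called without WT 2 (-0.12, adjusted p = 0.059) or when scaled by library size alone (-0.10, adjusted p = 0.078). Between the knockouts it was 1.59-fold higher in 1-2 KO (log2 0.67, SE 0.05, adjusted p = 1.4e-08).

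The 20 neighbours of GAS5 had a median log2 fold change of -0.12 in 1-1 KO and of 0.05 in 1-2 KO, next to -0.82 and -0.15 for GAS5 itself. The libraries were made with a stranded kit, but the strand setting of the counting is not given in the sources used here, so reads from overlapping genes on opposite strands cannot be told apart, which holds for every member below that has such a gene. GAS5-AS1 had 3 to 22 counts per library and no call. The zinc finger gene ZBTB37 had a log2 fold change of -0.38 in 1-2 KO (adjusted p = 0.0017).

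SNHG1 (ENSG00000255717, chr11:62851978-62855953, minus strand) is counted as 1 merged exon of 3976 nucleotides, introns of some isoforms included. Its level was 223, 218 and 207 CPM in WT, 178, 167 and 181 CPM in 1-1 KO and 185, 201 and 195 CPM in 1-2 KO. All 3 lines were apart, in the order WT, 1-2 KO, 1-1 KO. SNHG1 was lower than in WT (216 ± 7.95 CPM, SD, n = 3) both in 1-1 KO (175 ± 7.10 CPM, log2 -0.30, SE 0.04, adjusted p = 2.9e-05) and in 1-2 KO (194 ± 8.34 CPM, log2 -0.16, SE 0.04, adjusted p = 0.0065). The difference between the knockouts, 0.14 (SE 0.04, adjusted p = 0.0097), was not called without 1-1 KO 2 (0.11, adjusted p = 0.061). The ratio of GAS5 to SNHG1 counts was 0.744 ± 0.0209 in WT, 0.519 ± 0.0251 in 1-1 KO and 0.748 ± 0.0113 in 1-2 KO, so GAS5 was low next to SNHG1 in 1-1 KO, whose libraries did not overlap with the others. The neighbours of SNHG1 had a median log2 fold change of -0.01 in 1-1 KO and of -0.0043 in 1-2 KO.

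**Figure D3:**
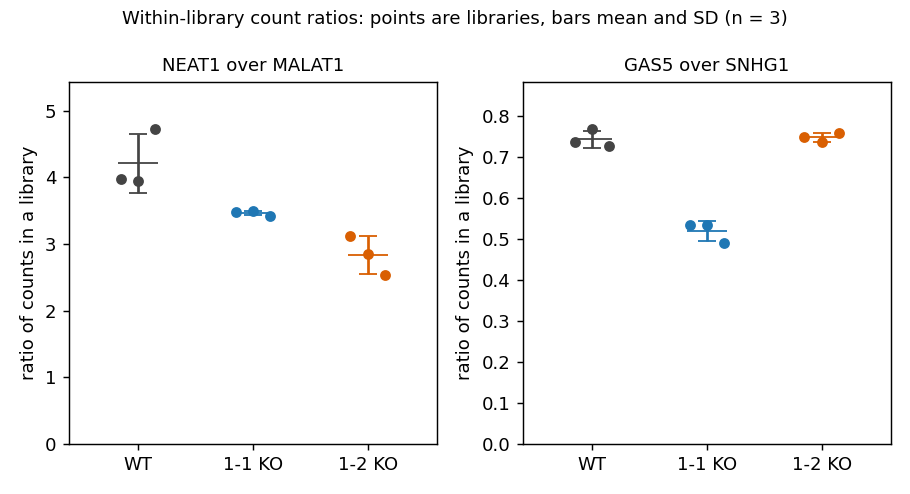
Ratio of the counts of 2 genes within each library (y axis, from 0) by line, with points for libraries and bars for the mean and SD of 3. NEAT1 over MALAT1 falls from WT to 1-1 KO to 1-2 KO, and GAS5 over SNHG1 is low in 1-1 KO.

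SNHG5 (ENSG00000203875, chr6:85650491-85678932, minus strand, 12604 exonic nucleotides) carries the SNORD50 snoRNAs. Its level was 24.6, 25.2 and 24.2 CPM in WT, 25.8, 25.9 and 26.5 CPM in 1-1 KO and 18.4, 21.5 and 22.3 CPM in 1-2 KO. The 1-2 KO libraries were all below the rest. The 1-1 KO libraries were apart from WT but the difference of 0.08 (SE 0.06) was not called (adjusted p = 0.29). SNHG5 was 1.19-fold lower in 1-2 KO than in WT (20.8 ± 2.03 against 24.7 ± 0.494 CPM, SD, n = 3, log2 -0.25, SE 0.07, adjusted p = 0.0047) and 1.26-fold lower than in 1-1 KO (log2 -0.33, SE 0.06, adjusted p = 0.00041). Its 20 neighbours had nearly the same medians, 0.10 in 1-1 KO and -0.23 in 1-2 KO, and their part in the change was not tested.

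SNHG16 (ENSG00000163597, chr17:76557727-76670985, plus strand, 5776 exonic nucleotides) carries the SNORD1 snoRNAs. Its level was 36.8, 38.1 and 41.0 CPM in WT, 41.1, 41.3 and 40.2 CPM in 1-1 KO and 31.3, 32.8 and 31.3 CPM in 1-2 KO. As for SNHG5, the 1-2 KO libraries lay below all others, and WT and 1-1 KO overlapped. SNHG16 was 1.21-fold lower in 1-2 KO than in WT (31.8 ± 0.898 against 38.6 ± 2.14 CPM, SD, n = 3, log2 -0.28, SE 0.05, adjusted p = 0.00023) and 1.28-fold lower than in 1-1 KO (log2 -0.36, SE 0.05, adjusted p = 1.3e-05). The value of 0.08 in 1-1 KO (40.8 ± 0.608 CPM, adjusted p = 0.15) was called without WT 3 (0.13, adjusted p = 0.029) and when scaled by library size alone (0.13, adjusted p = 0.023). The neighbours had medians of 0.36 in 1-1 KO, 0.12 in 1-2 KO and -0.37 between the knockouts. Among the genes that overlap SNHG16 on the opposite strand, ST6GALNAC1, a sialyltransferase, had 0.272 CPM in WT, 2.70 in 1-1 KO and 0.0914 in 1-2 KO, at most 2.70 CPM next to 40.8 CPM of SNHG16 in the same line.

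SNHG6 (ENSG00000245910, chr8:66920561-66926398, minus strand, 2527 exonic nucleotides) carries SNORD87. Its level was 44.9, 50.9 and 46.1 CPM in WT, 37.4, 33.9 and 39.9 CPM in 1-1 KO and 36.9, 34.2 and 32.2 CPM in 1-2 KO. All WT libraries were above all knockout libraries, and the knockouts overlapped. SNHG6 was 1.28-fold lower in 1-1 KO (37.1 ± 2.99 against 47.3 ± 3.17 CPM, SD, n = 3, log2 -0.35, SE 0.07, adjusted p = 0.00041) and 1.37-fold lower in 1-2 KO (34.5 ± 2.38 CPM, log2 -0.46, SE 0.07, adjusted p = 5.6e-05). It was the only 1 of the 10 whose knockouts were not called against each other (-0.10, SE 0.07, adjusted p = 0.19). The neighbours had a median of -0.04 in 1-1 KO and of -0.30 in 1-2 KO. MCMDC2, a meiotic MCM-domain gene on the opposite strand that shares 1488 exonic nucleotides, had 33 to 107 counts per library and a log2 fold change of -1.01 in 1-2 KO (adjusted p = 0.0025).

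The 2 box H/ACA hosts went separate ways in 1-2 KO. SNHG8 (ENSG00000269893, chr4:118278703-118285316, plus strand, 6614 exonic nucleotides in 1 merged exon) holds SNORA24. Its level was 32.5, 35.4 and 38.0 CPM in WT, 30.2, 29.6 and 32.8 CPM in 1-1 KO and 25.5, 25.7 and 24.2 CPM in 1-2 KO. The 1-2 KO libraries were the lowest, and WT and 1-1 KO overlapped. SNHG8 was 1.40-fold lower in 1-2 KO than in WT (25.1 ± 0.807 against 35.3 ± 2.76 CPM, SD, n = 3, log2 -0.49, SE 0.06, adjusted p = 1.2e-05), the largest fall of the 10 in that line, and 1.23-fold lower than in 1-1 KO (log2 -0.30, SE 0.06, adjusted p = 0.00074). In 1-1 KO it was 1.14-fold lower than in WT (30.9 ± 1.73 CPM, log2 -0.19, SE 0.06, adjusted p = 0.015). That call was lost without WT 3 (-0.13, adjusted p = 0.081), 1-1 KO 1 (-0.18, adjusted p = 0.057) or 1-1 KO 2 (-0.16, adjusted p = 0.069), and with library size alone (-0.14, adjusted p = 0.064). Its neighbours had medians above 0 in both knockouts, 0.36 and 0.22. PRSS12, the protease neurotrypsin, lies opposite and shares 2487 exonic nucleotides, and it had 21 to 78 counts per library and rose in 1-2 KO (log2 1.18, adjusted p = 0.00012).

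EPB41L4A-AS1 (ENSG00000224032, chr5:112160526-112164818, plus strand, 4293 exonic nucleotides in 1 merged exon) holds SNORA13. Within each line it was the most variable of the 10, with 2.54, 3.65 and 4.72 CPM in WT, 3.83, 3.26 and 3.36 CPM in 1-1 KO and 6.29, 4.44 and 4.32 CPM in 1-2 KO, from 101 to 265 counts per library. WT overlapped with both knockouts, whereas the knockouts did not overlap with each other. It was not called in 1-1 KO (3.48 ± 0.304 against 3.64 ± 1.09 CPM, SD, n = 3, log2 -0.05, SE 0.20, adjusted p = 0.85). It was called higher in 1-2 KO (5.02 ± 1.10 CPM, log2 0.48, SE 0.19, adjusted p = 0.047), but of 9 refits that each left out a library 3 kept the call, with log2 fold changes from 0.27 without WT 1 and 0.29 without 1-2 KO 1 to 0.68 without WT 3. The difference between the knockouts, 0.53 (SE 0.19, adjusted p = 0.024), was lost in 3 of 9 refits, down to 0.33 without 1-2 KO 1 (adjusted p = 0.12). EPB41L4A, the gene on the opposite strand, had at most 2 counts in a library.

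Other genes of the same biology were read from lists drawn up by name. Of 20 tested noncoding snoRNA hosts outside the 10, 11 were lower and 3 higher in 1-1 KO (70% called, median log2 fold change -0.44), and 8 were lower and 3 higher in 1-2 KO (55% called, median -0.21), next to 63.4% and 54.4% called and medians of 0.01 and 0.02 over all genes. SNHG29 fell from 757 CPM in WT to 361 in 1-1 KO and 570 in 1-2 KO. SNHG12 fell by 1.25 on the log2 scale in 1-1 KO, and DANCR fell by 1.21 in 1-2 KO against a fall of 0.26 in 1-1 KO. Of 24 protein-coding snoRNA hosts, 13 were lower and 5 higher in 1-1 KO (75% called) and 12 were lower and 2 higher in 1-2 KO (58.3% called). RABGGTB, a subunit of the Rab geranylgeranyl transferase, fell in both lines, from 168 to 88.1 and 91.0 CPM. TCP1, a chaperonin subunit, fell by 0.54 on the log2 scale in 1-2 KO.

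Of 82 tested genes of cytosolic ribosomal proteins, whose mRNAs share the pyrimidine start with many of the hosts, 56 were lower and 6 higher in 1-1 KO (75.6% called, median -0.28) and 41 were lower and 5 higher in 1-2 KO (56.1% called, median -0.10), against 63.4% and 54.4% of all genes. RPS23 fell by 0.93 and RPLP0 by 0.79 on the log2 scale in 1-1 KO, and RPL37 fell by 1.02 in 1-2 KO. RPL10L, a retrogene copy singled out after its value was seen, stood apart with 0.209 CPM in WT and 2.66 CPM in 1-1 KO. Of 25 other translation genes with such mRNAs, 13 were lower and 7 higher in 1-1 KO (80% called), and 9 were lower and 1 higher in 1-2 KO (40% called). NPM1, the nucleolar protein nucleophosmin, stood at 2951 CPM in WT, 1701 in 1-1 KO and 2909 in 1-2 KO, called in the first comparison (log2 -0.80, adjusted p = 2.1e-10) and not in the second (adjusted p = 0.65). BTF3 and the initiation factor subunit EIF3A fell in both lines, EIF3A by 0.51 and 0.44 on the log2 scale.

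**Figure D4:**
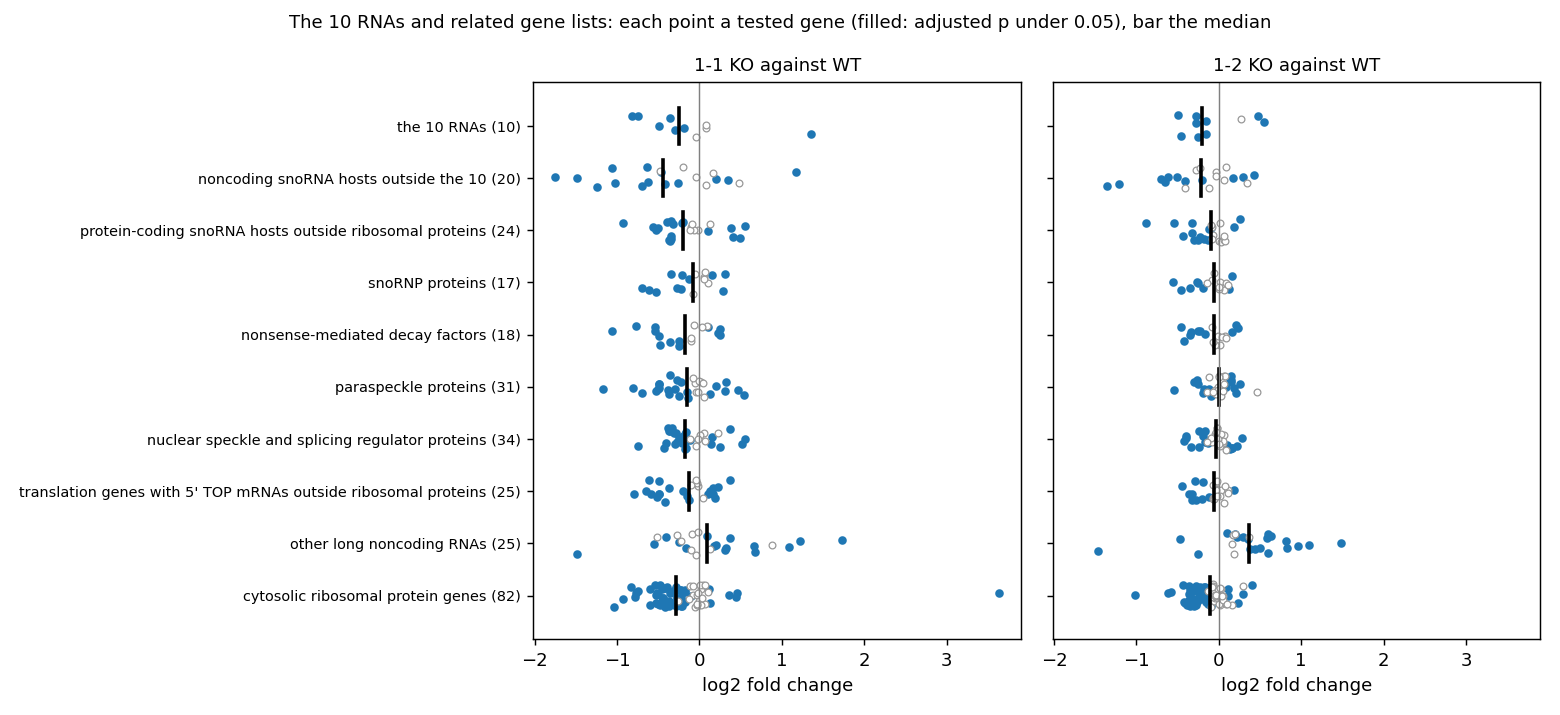
Log2 fold change (x axis) of the 10 RNAs and of each tested gene in 9 related lists (rows, number of tested genes in parentheses) for each knockout against WT, filled where the adjusted p was below 0.05, with a bar at the median. Medians of the host and ribosomal protein lists lie below 0 in both panels, and that of the other long noncoding RNAs lies above 0.

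Each list of proteins that work with these RNAs held more genes called lower than higher in 1-1 KO, where 30.9% of all genes were lower and 32.5% higher. In 1-2 KO the lists were called about as often as all genes (54.4%) or less. Of 17 proteins of snoRNA particles, 8 were lower and 3 higher in 1-1 KO (64.7% called, against 63.4% of all genes), with FBL, the box C/D methyltransferase fibrillarin, at 342 CPM in WT, 224 in 1-1 KO and 356 in 1-2 KO, and the box C/D core protein NOP56 at 526, 366 and 496 CPM. In 1-2 KO 6 were lower and 2 higher (47.1% called), with falls of 0.55 for NOP10, a core protein of H/ACA particles, and of 0.46 for the assembly factor ZNHIT6. Of 18 factors of nonsense-mediated decay, 9 were lower and 4 higher in 1-1 KO (72.2% called) and 7 were lower and 3 higher in 1-2 KO (55.6% called). SMG5 fell from 407 CPM to 195 in 1-1 KO and 298 in 1-2 KO, and UPF2 and PNRC2 fell in both lines.

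Of 31 paraspeckle proteins, 17 were lower and 6 higher in 1-1 KO (74.2% called, against 63.4% of all genes, median -0.15). In 1-2 KO 8 were lower and 8 higher (51.6% called, against 54.4% of all genes, median 0.00). A link to the level of NEAT1 was not tested. UBAP2L fell by 0.80 and the cold-inducible RNA-binding protein RBM3 by 0.70 on the log2 scale in 1-1 KO, and HNRNPF fell by 0.55 and FAM98A by 0.30 in 1-2 KO. Of 34 proteins of nuclear speckles and splicing regulation, 21 were lower and 6 higher in 1-1 KO (79.4% called, median -0.17). In 1-2 KO 11 were lower and 6 higher (50% called, median -0.04), next to the same shares of all genes. CLK2, a kinase of splicing factors, fell by 0.75 on the log2 scale in 1-1 KO and rose by 0.28 in 1-2 KO. SRSF9 fell by 0.40 in 1-1 KO, and SRRM1 and PRPF4B fell by 0.39 and 0.43 in 1-2 KO.

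Of 25 other long noncoding RNAs tested, 11 were higher and 5 lower in 1-1 KO (64% called, median 0.09) and 17 were higher and 3 lower in 1-2 KO (80% called, median 0.37), against 63.4% and 54.4% of all genes. Whether this list differed from the host lists was not tested. UCA1 rose from 1.37 CPM in WT to 4.50 in 1-1 KO and 2.06 in 1-2 KO, the order in which the HULC locus stood. NORAD, which binds PUMILIO proteins, rose from 267 CPM to 333 and 341. OIP5-AS1 rose in both lines, by 0.37 and 0.09 on the log2 scale. LINC00511 rose in 1-1 KO and fell in 1-2 KO, from 3.29 CPM to 5.18 and 1.18.

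The gene most like a member over the 9 libraries, by Pearson's r of log2 CPM over 13341 candidates whose mean reached 1 CPM, was CEP95 for MALAT1 (r = 0.988), CMTM8 for NEAT1 (0.987), NUDCD1 for the HULC locus (0.988), SH3KBP1 for GAS5 (0.996) and ITGAV for SNHG1 (0.985). For other hosts it was CHCHD1 for SNHG6 (0.974), RCAN3 for SNHG8 (0.995), SPSB1 for SNHG16 (0.994) and FKBP1C for EPB41L4A-AS1 (0.981). These are the best of many genes over 9 points that share 3 lines and the same libraries, and they are given as a description. FKBP1C itself varied widely within a line (29.2 ± 19.5 CPM for WT, 48.6 ± 25.7 CPM for 1-2 KO, SD, n = 3).

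The labelled cell type was checked against markers. All 10 hepatocyte and hepatoma markers were detected, and their summed level was 15056 to 15996 CPM in WT, 31226 to 32166 CPM in 1-1 KO and 21246 to 23269 CPM in 1-2 KO. ALB and AFP were called higher in both knockouts. ALB stood at 2531.5 CPM in WT, 9427 in 1-1 KO and 4739 in 1-2 KO, and AFP at 1759, 8167 and 7419 CPM. Of the 10 markers 8 were higher and 1 lower in 1-1 KO (median 0.48), and 4 were higher, 3 lower and 3 not called in 1-2 KO (median 0.05). Of all genes, 32.5% were called higher and 30.9% lower in 1-1 KO, and 28.2% higher and 26.2% lower in 1-2 KO. Leukocyte markers summed to 115 to 116 CPM in WT, 102 to 107 CPM in 1-1 KO and 21.7 to 22.4 CPM in 1-2 KO, nearly all from LYZ, while PTPRC, which defines leukocytes, had line means between 0.153 and 0.998 CPM. Endothelial markers summed to at most 8.04 CPM, of which PECAM1 gave 7.57 CPM in WT and 0.839 CPM in 1-2 KO. Fibroblast and stellate markers summed to 166 to 177, 220 to 231 and 83.4 to 88.7 CPM, mostly from LUM, which fell in 1-2 KO, while the other 3 of the 4 tested markers rose there (PDGFRB by 1.87 on the log2 scale). The summed hepatocyte level stood in the same order as the HULC locus, and its part in any of the values above was not tested.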

How the data were processed

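Per the labels, RNA of untreated Huh-7 cells was extracted with a column kit, whereas the study's methods describe a phenol-chloroform extraction of total RNA. It was made into libraries with a stranded mRNA kit, and the authors aligned reads to hg38 (GRCh38) using STAR, with featureCounts assigning them to genes. Tool versions, the strand setting and the treatment of reads with several positions are not given in the sources used here. The authors deposited raw counts per gene as 1 table with 9 columns, 3 for each line, and each column was matched to its sample by its label. Rows were named through GENCODE 44, which holds 60463 of the 60664 identifiers, and positions and merged exon lengths come from it, although the authors counted on another release. The remaining 201 identifiers hold 0.0192% of counts.

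The counts were tested with edgeR 4.0.16 (R 4.3.3) by its quasi-likelihood test with TMM scaling and filterByExpr (minimum count 10, minimum total 15), with a term per line and all 9 libraries in 1 fit, and adjusted p-values (Benjamini-Hochberg) over 17207 genes were called below 0.05. The fit was tested on simulated data first. Replicates differed by more than counting noise (chi-square per degree of freedom 2.07 to 16.1), so none was taken as a repeat of another. Counting intervals and limits cover counting error only. The study itself used DESeq2. Alternatives were DESeq2 1.42.0, other scalings and filters, fits of the lines compared alone, a threshold of 0.01, the replicate number as a block, leaving out each library and subtracting the median of the 20 nearest tested genes. The members and the lists were chosen with earlier results of these data known. Named beside the members are genes that overlap them, the snoRNA with most counts in each host, the genes with the 2 smallest adjusted p-values of each list in each knockout, and the gene most correlated with each member. Some genes that this rule names are not reported here.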

Additional observations from a re-analysis of the deposited data

Results flagged for a closer look

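The contrast of the knockouts, which tests whether a member changed differently from WT in 1-2 KO and in 1-1 KO, was called for 9 of the 10, beside 65.3% of all genes. The 1-2 KO change exceeded the 1-1 KO change by 0.77 on the log2 scale for MALAT1, by 0.47 for NEAT1, by 0.67 for GAS5, by 0.14 for SNHG1 and by 0.53 for EPB41L4A-AS1. The difference was -0.80 for the HULC locus, -0.33 for SNHG5, -0.30 for SNHG8 and -0.36 for SNHG16. All 9 had no overlap of libraries between the knockouts, as had 69.8% of all genes. In GAS5 and NEAT1 the change was in the same direction in both lines and much the larger in 1-1 KO, whereas MALAT1 was lower than WT in 1-1 KO and above it, without a call, in 1-2 KO.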

How the results depend on the processing

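The 30 member results (10 RNAs in 3 comparisons) were refitted under 18 settings. Of 540 values, 497 kept their direction and side of the threshold, 35 kept their direction and lost the call and 6 kept it and gained a call. The sign turned in 2, both EPB41L4A-AS1 in 1-1 KO, called in neither (0.18 without WT 3 and 0.0033 with library size alone). The members called higher in 1-1 KO numbered 1, and 2 when scaled by library size alone, where SNHG16 joined, or in the refits without a library (1 to 2). Those called higher in 1-2 KO numbered 2, but 3 with library size alone or no filter, 1 with DESeq2 on 9 libraries, with edgeR on the lines compared, with at least 10 counts in every library and with the replicate block, 0 with DESeq2 on the lines compared and at an adjusted p under 0.01, and 1 to 2 without a library. Members lower numbered 7 in 1-2 KO, but 5 with library size alone and at the stricter threshold. They were 6 there with either DESeq2 fit and 6 to 7 without a library. In 1-1 KO members lower numbered 6, but 5 with library size alone and at the stricter threshold. They were 5 to 6 there without a library, with 5 when WT 3, 1-1 KO 1 or 1-1 KO 2 was left out. Those higher in 1-2 KO than in 1-1 KO numbered 5, and 3 to 5 without a library, with 3 when 1-1 KO 2 was left out. Why was not tested. Same-numbered libraries did not deviate together (r from -0.19 to 0.05 over 9 pairs), so the numbers share only a label, and the block moved the counts of called genes from 10915 to 10596, from 9355 to 8986 and from 11229 to 10923. With the neighbours' median subtracted, 15 values moved by less than the SD between libraries, and the sign turned in 4: SNHG16 between the knockouts went from -0.36, called, to 0.0089, and 3 uncalled values turned, SNHG16 and SNHG5 in 1-1 KO (to -0.28 and -0.02) and SNHG6 between the knockouts (to 0.25). Of 60 mean levels under another scaling, 1 moved by over 1 SD. Low counts limit HULC (41 to 144) and EPB41L4A-AS1 (101 to 265).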
